A study of Mus musculus with 6 samples.

Results

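Axon guidance ligands and receptors were followed in epidermal progenitor cells of newborn mice in which 2 Polycomb complexes had been targeted. The genes were chosen by name: they are the protein-coding rows of the deposited expression table whose symbols begin with those of Eph receptors, ephrins, semaphorins of classes 3 to 7, plexins, netrins, Unc5 receptors, Slits or Robos. This rule gave 68 of the 38258 genes in the table, of which 35 encode ligands and 31 encode receptors. The other 2, Unc50, which encodes a Golgi membrane protein, and Unc5cl, which encodes an intracellular death-domain protein, carry a matching symbol but are not guidance receptors. RNA-seq was made from interfollicular epidermis of back skin at postnatal day 0, from cells sorted as positive for EpCAM and Sca1 and high for α6-integrin. There were 3 libraries from mice labelled Eed-/-, Ring1a-/-, Ring1b-/- (a triple knockout, here 3KO) and 3 from mice labelled control. The labels give no strain, no Cre driver and no further allele for either group, and they do not tie the numbered replicates to different animals. The p-values therefore measure how far these libraries scatter, and part of that scatter may be technical.

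Guidance cues were named for steering growing axons, and most of them also act in epithelia, vessels and connective tissue. Ephrins are membrane-bound ligands that signal through Eph receptor tyrosine kinases on neighbouring cells, and the ephrin itself can signal back into its own cell. Semaphorins signal through plexins, with neuropilins as coreceptors for most of the secreted class, netrins through Dcc, neogenin and Unc5 receptors, and Slits through Robo receptors. In skin these systems are known for sorting cells at tissue borders and for placing nerve endings and vessels. Polycomb repressive complex 2, of which Eed is a core subunit, and complex 1, whose ubiquitin ligases are Ring1a and Ring1b, are known for keeping developmental genes silent in tissues where they are not used.

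The targeted genes were read first, and they did not all follow the labels. Log2 changes here and below compare log2(normalized count + 1), libraries labelled 3KO minus control, ± SE. Eed had 381, 604 and 441 normalized counts in the libraries labelled 3KO, against 714, 1015 and 778 in controls (log2 change −0.82 ± 0.21, limma adjusted p = 0.0144). Ring1, which encodes Ring1a, had 67.7, 104 and 112 in the libraries labelled 3KO, against 11.8, 8.72 and 23.1 in controls (log2 change 2.70 ± 0.40, limma adjusted p = 0.000759), the opposite of the direction its label gives. Rnf2, which encodes Ring1b, had 783, 922 and 694 in the libraries labelled 3KO and 739, 875 and 1288 in controls (log2 change −0.24 ± 0.22, limma adjusted p = 0.417). By an exact permutation test (two-sided), p was 0.1 for Eed and Ring1, the smallest that 3 against 3 libraries allow, and 0.5 for Rnf2. The Eed call was lost without control replicate 2 (log2 change −0.67), without 3KO replicate 1 (−0.68) and without 3KO replicate 3 (−0.78), and with the dependence on GC content and transcript length taken out of each library (−0.40, limma adjusted p = 0.188). A gene's value adds up its transcripts, whichever exons they hold, and the deleted exons are not named in the sources used here.

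The deposited normalized counts summed to 23269000 to 26995400 in the libraries labelled 3KO and 21896300 to 29805700 in controls. Ribosomal RNA genes, mitochondrial ones included, took 27.6% to 31.4% of these sums in the libraries labelled 3KO, against 23.5%, 22.5% and 36.6% in control replicates 1, 2 and 3. Basal keratinocyte markers were abundant in every library, with Krt5 at 101316 to 114282 in the libraries labelled 3KO and 153384 to 234007 in controls, and their summed level was 194141 to 206614 in the libraries labelled 3KO against 383124 to 492277 in controls. Of the 9 markers 7 were lower (77.8%, beside 15.3% of all genes tested). The other 2, Epcam and the Sca1 gene Ly6a, were higher (22.2%, beside 20.5%). The α6-integrin gene Itga6, like those 2 a gene of the sort, was lower. In bulk RNA, fewer cells of a type and less RNA per cell cannot be told apart. Markers of neurons, melanocytes and Schwann cells moved with the groups more often than genes at large. By limma 75.0%, 85.7% and 66.7% of their tested markers passed, beside 35.8% of all genes tested. For endothelial, fibroblast and leukocyte markers the shares were 22.2%, 30.0% and 16.7%. Of 10 neuron markers, 8 were tested and 6 were higher, with a summed level of 826 to 951 in the libraries labelled 3KO and 126 to 149 in controls. Map2 alone had 444 to 689 in the libraries labelled 3KO and 52.5 to 92.0 in controls. Elavl3 did not pass (limma adjusted p = 0.0559), nor did Stmn2, which leaned lower (log2 change −0.74, limma adjusted p = 0.303). The untested Elavl4 had 6.04 to 8.28 in the libraries labelled 3KO and 0 in controls. Nefl, also untested, stayed between 0 and 6.35 in all libraries. Of 7 melanocyte markers 6 were higher (summed level 1209.5 to 1823 in the libraries labelled 3KO against 398 to 575 in controls), and of 9 Schwann cell markers 6 were tested, 3 higher and 1, Erbb3, lower; the summed level was 3132 to 3641 in the libraries labelled 3KO against 4151 to 4549 in controls, but without Erbb3 it was 1028 to 1172 in the libraries labelled 3KO against 415 to 758 in controls. Of 10 endothelial markers 9 were tested, with 1 higher and 1 lower (summed level 1128 to 1475 in the libraries labelled 3KO and 417 to 956 in controls), and without Flt1, the higher one, the sums overlapped (437 to 649.7 in the libraries labelled 3KO and 334 to 859 in controls). Erbb3 and Flt1 were left out after their values were seen. Of 10 fibroblast markers 2 were higher and 1 lower, and the summed level was 11471 to 17236 in the libraries labelled 3KO, against 8574, 13294 and 31986 in control replicates 1, 2 and 3. Control replicate 3, with the largest share of ribosomal RNA, was also the highest control for 17 of the 32 guidance genes that were higher. Of 8 leukocyte markers 6 were tested and 1 was higher (summed level 1246 to 1580 in the libraries labelled 3KO against 804 to 1875 in controls). The untested Cd207 was at 0 in the controls and at only 0.719 to 2.13 in the libraries labelled 3KO. The part of these cells in the results below was not tested.

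Many guidance genes were higher in the libraries labelled 3KO, and a smaller group of well-expressed ones was lower. Of the 68 genes 63 reached the mean of 10 required for testing, 32 were higher, 9 were lower and 22 did not pass (limma, Benjamini-Hochberg adjusted p below 0.05 over all 23006 genes tested). The called share of 65.1% stood beside 35.8% of all genes tested (20.5% higher and 15.3% lower) and 42.0% of the protein-coding ones. Quantile normalization, under which the median change over all genes was −0.17 (log2), gave 31 higher and 9 lower members, but among all genes 4194 higher and 4991 lower, so that 45.7% of those calls were higher in place of 57.3%. The changes of the 63 tested genes had a median of 0.63 on the log2 scale, beside 0.01 over all genes, and ran from −2.17 (Sema3c) to 5.47 (Sema5b). As a set these genes are rich in G and C (median transcript GC content 56.0%, beside 48.8% for all genes tested). The median was 56.7% for the higher genes, 48.6% for the lower ones and 50.5% for tested protein-coding genes. With the dependence on GC content and length taken out of each library (here the GC-adjusted values), 24 were higher and 11 lower. Among all genes 4820 were then higher and 3786 lower. The median log2 change of the 63 genes was then 0.17. That adjustment was added after the data had been seen, and under it Ephb3, Efna4, Ntn1, Plxna2, Plxnb2, Sema3e, Sema6b, Sema6c and Unc5b lost their calls, while Ephb6, Plxnb3 and Sema3f passed as lower. The groups did not overlap for 43 of the 63 genes (68.3%), beside 49.1% of all genes tested. At 2-fold or more, 23 of the 63 genes were called higher and 1 lower. Among all genes tested, 15.5% were called higher and 8.05% lower at that size.

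**Figure D1:**
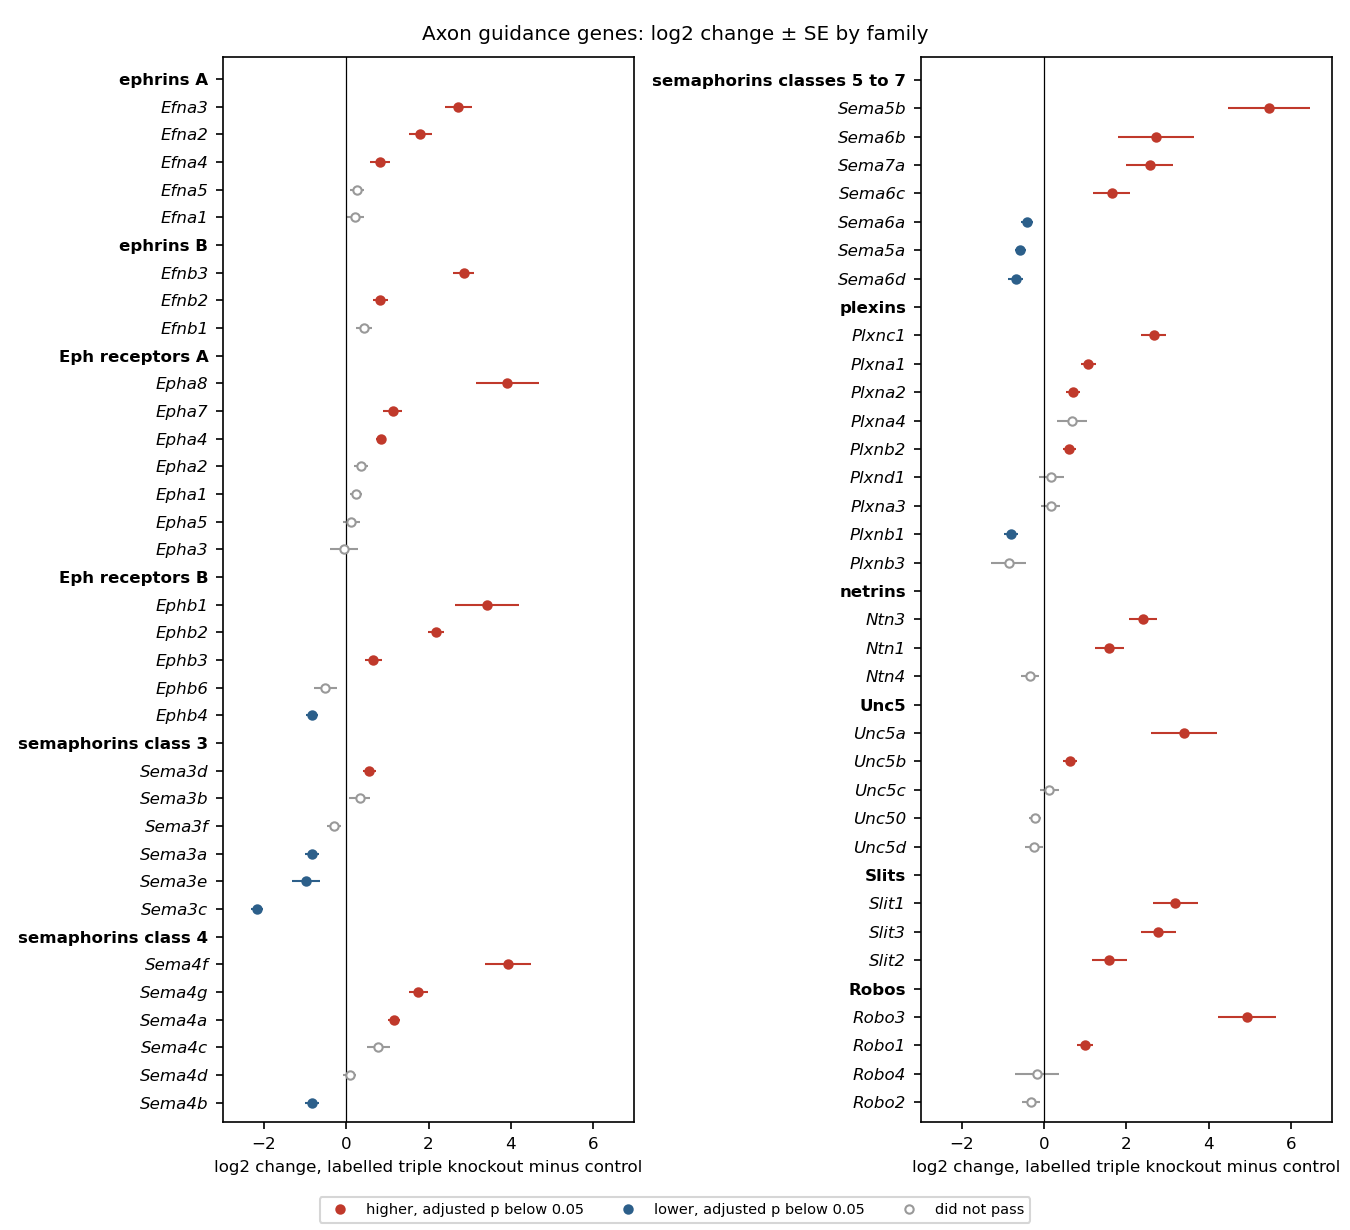
Log2 change (libraries labelled 3KO minus control) with its SE for the 63 tested guidance genes, grouped by family; filled points passed the limma test and open grey points did not. The 32 higher genes reach 5.47 (Sema5b), while the 9 lower ones, 7 of them semaphorins, lie between −2.17 (Sema3c) and −0.43 (Sema6a).

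Because the minimum was set on the mean over 6 libraries, a gene close to 0 in controls was tested only if it was high in the libraries labelled 3KO. This applied to 5 genes with a control mean below 10, Epha8, Robo3, Unc5a, Sema4f and Sema6b, all of which were called higher, and to no gene in the other direction. With no filter, 40 of the 68 genes were called, 32 higher and 8 lower (58.8%, beside 23.4% of all genes). The 5 untested genes were Epha10, Epha6, Unc5cl, Ntn5 and Sema3g, with levels between 0 and 16.7 in every library. The 9 lower genes all had control means of 333 (Sema3e) or more. Of the 33 genes with a mean between 100 and 1000, 15 were higher and 3 lower, beside 25.4% higher and 18.4% lower of all genes in that range. Of the 16 above 1000, 7 were higher and 6 lower, beside 20.6% higher and 24.7% lower of all genes. By role, 18 of 33 tested ligand genes were higher (54.5%) and 7 lower (21.2%), with a median log2 change of 0.82. Of 29 tested receptor genes, 14 were higher (48.3%) and 2, Ephb4 and Plxnb1, lower (6.90%), with a median of 0.61. Among all genes tested, 20.5% were higher and 15.3% lower.

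Promoter sequence is shown for 3 members to set a gene that was higher for each role beside one that was lower. Efna2 encodes a membrane-anchored ephrin, Plxnc1 a plexin and Ephb4 an Eph receptor. Each line gives the 250 bases before the annotated start, 5′ to 3′ on the strand of the gene, from RefSeq (GRCm38.p6), with every CpG dinucleotide, the substrate of DNA methylation and a known feature of Polycomb target promoters in mammals, in capitals. They lie at chr10:80179232-80179481 on the plus strand, chr10:94944846-94945095 on the minus strand and chr5:137349859-137350108 on the plus strand.
Efna2: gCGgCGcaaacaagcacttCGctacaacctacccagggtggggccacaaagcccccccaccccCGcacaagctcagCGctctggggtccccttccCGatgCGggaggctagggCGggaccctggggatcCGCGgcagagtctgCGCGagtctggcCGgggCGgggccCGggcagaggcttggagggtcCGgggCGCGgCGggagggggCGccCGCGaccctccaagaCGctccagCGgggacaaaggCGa
Plxnc1: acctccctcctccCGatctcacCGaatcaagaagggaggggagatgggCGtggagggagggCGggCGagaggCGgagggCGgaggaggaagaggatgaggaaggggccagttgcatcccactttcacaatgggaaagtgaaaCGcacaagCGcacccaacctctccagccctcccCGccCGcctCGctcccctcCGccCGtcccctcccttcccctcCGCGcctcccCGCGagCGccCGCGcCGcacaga
Ephb4: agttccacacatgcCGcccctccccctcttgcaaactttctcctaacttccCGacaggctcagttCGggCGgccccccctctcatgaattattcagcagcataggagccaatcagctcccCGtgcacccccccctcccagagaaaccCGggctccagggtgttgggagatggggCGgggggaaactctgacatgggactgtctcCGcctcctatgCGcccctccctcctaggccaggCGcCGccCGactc
The stretch of Efna2 holds 25 CpGs and that of Plxnc1 holds 22, while that of Ephb4 holds 12. They were picked by the size of the change among members with a mean of at least 100 whose call held under every alternative, a single promoter window, no annotated exon within the stretch and starts in RefSeq and GENCODE within 50 bases of each other. No ligand gene that was lower met all of these conditions, since exons lay in the stretches of Sema3c and Sema5a, the starts of Sema3a lay far apart, Sema4b had more than 1 window and the other lower ligands lost their call under at least 1 alternative.

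Across the family, promoter windows of 300 bases (250 before and 50 after the start) were found for 59 of the 68 genes, and for a gene with several windows the one with the most CpGs was used. Among the 28 genes with a window that were higher, 22 were rich in CpG (78.6%), defined as GC content above 50% and more than 0.6 of the CpGs that base composition predicts. Among the 8 lower genes 5 were CpG-rich (62.5%), and among the 18 that did not pass 10 were (55.6%). Tested protein-coding genes were CpG-rich in 64.1% of cases, with 67.8% of those higher and 68.7% of those lower, and all windows of the table in 33.3%. The median window held 26 CpGs for higher, 18.5 for lower and 19 for genes that did not pass, but the 3 sets overlapped over most of their range. Windows of lower genes held from 2 CpGs (Sema3a) to 42 (Sema3c). Of the 2 lower receptors, Plxnb1 had 36 and Ephb4 had 14. The motif TATAAA on either strand was present in the windows of Slit2 and Efnb2 (3.39% of the 59), beside 8.43% of tested protein-coding genes. Both were higher, which made 7.14% of the higher guidance genes with a window, beside 6.80% of all higher protein-coding genes. Genes with no window in the table were Sema3b, Slit1, Ntn1, Sema6a, Efnb3, Unc5d, Plxna4, Plxna1 and Sema3f.

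**Figure D2:**
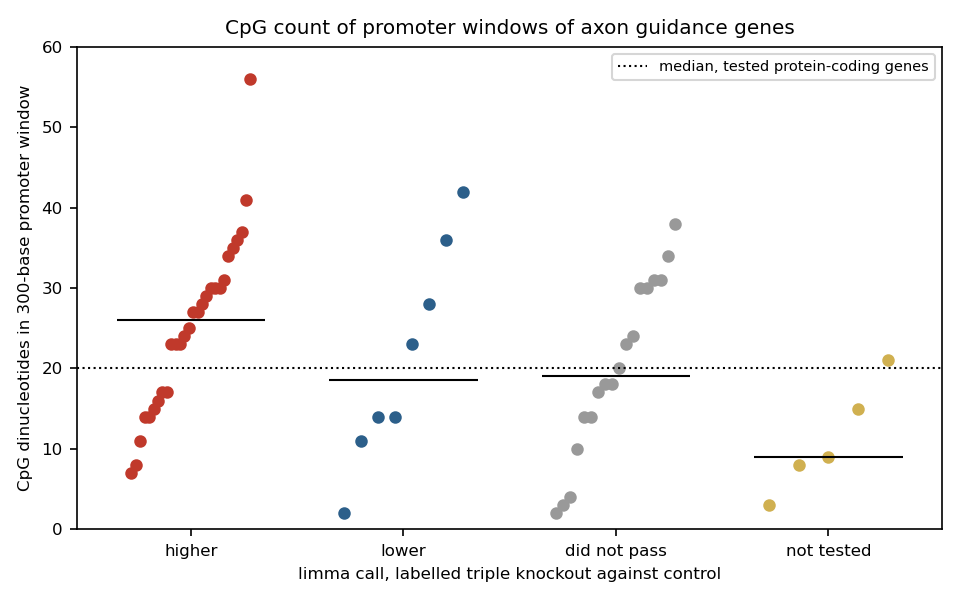
Number of CpG dinucleotides in the 300-base promoter window of each of the 59 guidance genes with a window, by limma call; bars are medians and the dotted line is the median of tested protein-coding genes. The medians were 26 for higher, 18.5 for lower and 19 for genes that did not pass, with wide overlap.

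Ephrins, the ligands of Eph receptors, were higher as far as they changed. Of 8 ephrin genes 5 were higher by limma (62.5%, beside 20.5% of all genes tested). By limma 0 were lower (beside 15.3%), and 0 also at an unadjusted p below 0.05. The 3 that did not pass, Efna1, Efna5 and Efnb1, were among the well-expressed ones. Summed per kilobase of exon, the ephrins reached 2392 ± 186 in the libraries labelled 3KO and 1306 ± 291 in controls (SD, n = 3 libraries each), and the groups did not overlap.

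Efna3 changed most among the membrane-anchored ephrins of the A class (ENSMUSG00000028039.11, GRCm38 chr3:89313899-89322965, minus strand). It had 1006, 1098 and 1252 normalized counts in the libraries labelled 3KO, against 139, 108 and 310.0 in controls, a log2 change of 2.73 ± 0.34 (limma adjusted p = 0.000297). All libraries labelled 3KO stood far above the highest control, which was replicate 3. Of its exon bases 14.1% also belong to the opposite-strand gene Gm15998, and whether the counting used strand is not stated in the sources used here. Efna2 had 156, 198 and 231 in the libraries labelled 3KO and 49.8, 41.3 and 78.3 in controls (log2 change 1.80 ± 0.29, limma adjusted p = 0.00117). Efna4 was higher by 0.82 ± 0.24 on the log2 scale (limma adjusted p = 0.0237), with 491 ± 112 in the libraries labelled 3KO and 278 ± 68.2 in controls. Its call was lost without control replicate 1 (0.82, limma adjusted p = 0.0556) or 2 (0.64, adjusted p = 0.0763) and without 3KO replicate 1 (0.85, adjusted p = 0.0632) or 3 (0.65, adjusted p = 0.0979). Efna5 did not pass, at 1053 ± 176 in the libraries labelled 3KO and 879 ± 106 in controls (limma adjusted p = 0.277), nor did Efna1, at 482 ± 95.8 in the libraries labelled 3KO and 413 ± 80.7 in controls.

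The order of the A ephrins differed between the groups. As a share of the class's level per kilobase, Efna3 held 33.0%, 34.3% and 32.5% in the libraries labelled 3KO, against 8.30%, 7.75% and 14.2% in controls. It was the most abundant of the 5 in every library labelled 3KO, while in every control only Efna2 was below it. Efna1 held 19.1% ± 3.82 in the libraries labelled 3KO and 31.5% ± 1.53 in controls, and Efna5 held 18.9% ± 2.59 in the libraries labelled 3KO and 30.7% ± 3.42 in controls. The share of Efna4 overlapped between groups (22.1% ± 2.89 in the libraries labelled 3KO and 24.1% ± 0.943 in controls).

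Among the transmembrane ephrins of the B class, Efnb2, known in vessels as the arterial partner of Ephb4, was the most abundant per kilobase in both groups. Its normalized counts were 5040, 5105 and 4823 in the libraries labelled 3KO and 2723, 2174 and 3714 in controls, a log2 change of 0.83 ± 0.18 (limma adjusted p = 0.0069). The groups did not overlap. Efnb3, known as a midline barrier to axons in the spinal cord, had 158, 235 and 241 in the libraries labelled 3KO, against 30.1, 23.9 and 30.1 in controls (log2 change 2.85 ± 0.26, limma adjusted p = 4.95e-05). Its lowest library labelled 3KO was several times its highest control. Efnb1 did not pass, at 744 ± 169 in the libraries labelled 3KO and 545 ± 48.8 in controls (log2 change 0.43 ± 0.19, limma adjusted p = 0.113), and was called higher without 3KO replicate 1 (0.60, adjusted p = 0.0468).

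Receptors of the Eph family that passed were higher except for Ephb4, and the main epithelial ones did not pass. Of 12 tested Eph genes 6 were higher (beside 20.5% of all genes tested) and 1, Ephb4, was lower (8.33%, beside 15.3%). The A class summed to 1206 ± 137 per kilobase in the libraries labelled 3KO and 869 ± 44.5 in controls, without overlap. Epha2 and Epha1, the receptors best known from epithelia, did not pass: Epha2 had 2623 ± 569 in the libraries labelled 3KO and 2018 ± 147 in controls (limma adjusted p = 0.136), and Epha1 had 1024 ± 82.3 in the libraries labelled 3KO and 874 ± 111 in controls (limma adjusted p = 0.26). Epha2 was called higher without 3KO replicate 1 (log2 change 0.52, limma adjusted p = 0.0454). Epha4, which binds ephrins of both classes, had 2748, 2721 and 2636 in the libraries labelled 3KO, against 1461, 1371 and 1684 in controls (log2 change 0.85 ± 0.13, limma adjusted p = 0.000899). Its values were tight in both groups and did not overlap. Epha7 had 307, 288 and 300.3 in the libraries labelled 3KO and 130.0, 187 and 104 in controls (log2 change 1.12 ± 0.24, limma adjusted p = 0.00532). Epha8, a receptor known from the developing midbrain, had 17.7, 13.8 and 38.7 in the libraries labelled 3KO and 0, 2.17 and 0 in controls (log2 change 3.92 ± 0.76, limma adjusted p = 0.00346), a difference at very low levels. Epha3 and Epha5 did not pass (limma adjusted p = 0.917 and 0.682).

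In the B class the balance between receptors differed more than their sum. Ephb2, a receptor for the B ephrins (ENSMUSG00000028664.14, chr4:136647539-136835988, minus strand), had 1090, 1597 and 1509 in the libraries labelled 3KO, against 362, 269.8 and 285 in controls. Its log2 change was 2.18 ± 0.20 (limma adjusted p = 4.56e-05), and the groups lay far apart. Ephb4, the main receptor for ephrin-B2, whose promoter stretch with 12 CpGs is shown above, had 979, 1167 and 1252 in the libraries labelled 3KO and 1850, 1924 and 2242 in controls. It was the only Eph receptor that was lower, with a log2 change of −0.83 ± 0.15 (limma adjusted p = 0.00223). Ephb1 had 111, 129 and 109 in the libraries labelled 3KO and 1.34, 18.9 and 26.5 in controls (log2 change 3.43 ± 0.78, limma adjusted p = 0.00806). That size moved with single controls, to 2.32 without control replicate 1 and 4.10 without control replicate 3. Ephb3 was higher by 0.66 ± 0.20 (limma adjusted p = 0.0284), with 1056 ± 245 in the libraries labelled 3KO and 663 ± 102 in controls, but not without 3KO replicate 2 (0.71, adjusted p = 0.0629) or 3 (0.48, adjusted p = 0.1097). Ephb6, whose kinase domain is inactive, did not pass (278 ± 52.8 in the libraries labelled 3KO and 413 ± 152 in controls, limma adjusted p = 0.189), and was called lower without control replicate 1 (−0.81, adjusted p = 0.0357). Ephb4 held 40.4% ± 0.802 of the class's level per kilobase in the libraries labelled 3KO and 64.7% ± 1.23 in controls, and Ephb2 held 18.3% ± 2.28 in the libraries labelled 3KO and 3.68% ± 0.918 in controls. The summed level of the class per kilobase overlapped between the groups, at 604 ± 67.9 in the libraries labelled 3KO and 668 ± 68.2 in controls.

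**Figure D3:**
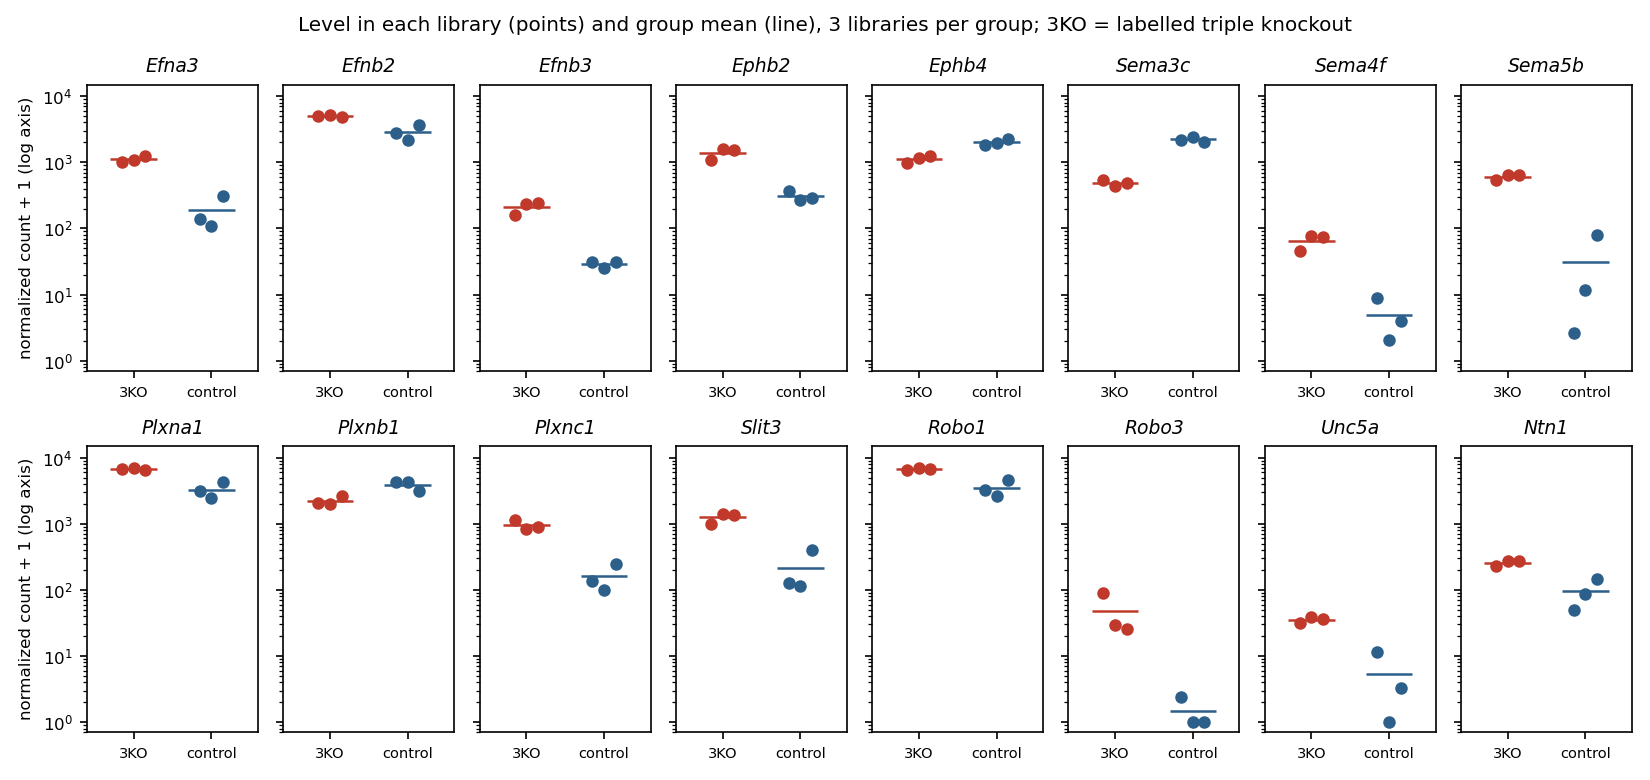
Normalized count + 1 (log axis) of 16 guidance genes in each of the 6 libraries, with the libraries labelled 3KO (red) left of the controls (blue) and a line at each group mean. The 16 were chosen from the 41 called genes, in all of which the groups do not overlap, beside 49.1% of all genes tested. Among those chosen, Ephb4, Sema3c and Plxnb1 are lower in the libraries labelled 3KO and the other 13 are higher.

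Semaphorins were the family that divided most evenly. Of 19 tested genes 8 were higher (42.1%, beside 20.5% of all genes tested) and 7 lower (36.8%, beside 15.3%). Semaphorins made up 7 of the 9 lower guidance genes. Per kilobase the summed family reached 1790 ± 220 in the libraries labelled 3KO, against 2129 ± 54.7 in controls, without overlap.

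The secreted class 3, which signals mainly through neuropilins and class A plexins, was lower in sum, at 521 ± 39.8 per kilobase in the libraries labelled 3KO and 818 ± 41.7 in controls. Sema3c (ENSMUSG00000028780.13, chr5:17574281-17730268, plus strand), a secreted semaphorin known for its part in forming the outflow tract of the heart, had 542, 436 and 493 normalized counts in the libraries labelled 3KO, against 2166, 2433 and 2032 in controls. It was the guidance gene with the largest fall, with a log2 change of −2.17 ± 0.15 (limma adjusted p = 9.41e-06), and its controls were 4.51-fold higher on average. Sema3a, the classical repellent of sensory axons, had 325, 239.6 and 273 in the libraries labelled 3KO and 491, 495 and 502 in controls (log2 change −0.84 ± 0.17, limma adjusted p = 0.00459). Its controls lay within a narrow band above all libraries labelled 3KO. Sema3e, a ligand of plexin D1, was lower by limma with a log2 change of −0.99 ± 0.34 (limma adjusted p = 0.0476), at 186, 126 and 155 in the libraries labelled 3KO and 199, 271 and 528 in controls. That call was lost without control replicate 2 (−1.07, limma adjusted p = 0.0763) or 3 (−0.59, adjusted p = 0.07099) and without 3KO replicate 1 (−1.12, adjusted p = 0.0717), 2 (−0.85, adjusted p = 0.153) or 3 (−0.99, adjusted p = 0.111). Sema3d moved the other way, at 992 ± 16.3 in the libraries labelled 3KO and 679.6 ± 109 in controls (log2 change 0.56 ± 0.16, limma adjusted p = 0.0204). Its call was lost without control replicate 1 (0.45, limma adjusted p = 0.0732) and also without 3KO replicate 1 (0.57, adjusted p = 0.0587), 2 (0.56, adjusted p = 0.0686) or 3 (0.55, adjusted p = 0.0682). Sema3f, the most abundant of the class per kilobase in both groups, did not pass (1433 ± 239 in the libraries labelled 3KO and 1757 ± 194 in controls, limma adjusted p = 0.184), nor did Sema3b (limma adjusted p = 0.356). Sema3c held 13.3% ± 2.45 of the class per kilobase in the libraries labelled 3KO and 37.8% ± 1.59 in controls, and Sema3d 22.2% ± 1.44 in the libraries labelled 3KO and 9.65% ± 1.28 in controls.

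Class 4 semaphorins are transmembrane proteins that signal mainly through class B plexins. Sema4a had 742, 745 and 898 in the libraries labelled 3KO and 329, 368 and 366 in controls (log2 change 1.16 ± 0.16, limma adjusted p = 0.000459). Sema4g had 426, 611 and 709.9 in the libraries labelled 3KO, against 157, 143 and 209.9 in controls (log2 change 1.76 ± 0.24, limma adjusted p = 0.000498). Both were higher in every library labelled 3KO than in any control. Sema4f, which is known from the nervous system, had 44.2, 74.9 and 73.4 in the libraries labelled 3KO and 7.77, 1.07 and 2.98 in controls (log2 change 3.93 ± 0.56, limma adjusted p = 0.000656). With a control mean of 3.94, Sema4f reached the mean required for testing only through the libraries labelled 3KO. Sema4b, the leading member of the class in controls, was lower, at 1155, 1606 and 1773 in the libraries labelled 3KO and 2693, 2522 and 2738 in controls (log2 change −0.83 ± 0.17, limma adjusted p = 0.00449). It remained the leading member per kilobase, with 34.3% ± 1.96 of the class in the libraries labelled 3KO and 60.7% ± 2.51 in controls. The summed class did not differ beyond its spread, at 776 ± 136 per kilobase in the libraries labelled 3KO and 775 ± 54.1 in controls. Sema4d, a ligand of plexin B1, did not pass (1126 ± 128 in the libraries labelled 3KO and 1061 ± 130.5 in controls, limma adjusted p = 0.706). Sema4c missed the threshold (log2 change 0.78 ± 0.28, limma adjusted p = 0.055) and passed without control replicate 3 (1.02, adjusted p = 0.00605).

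All 7 genes of classes 5 to 7 passed the test. Of these 4 were higher (57.1%, beside 20.5% of all genes tested) and 3 lower (42.9%, beside 15.3%). The 4 higher ones were low in controls, where the 3 lower ones were the leading members per kilobase. In the libraries labelled 3KO, Sema5b (mean 85.0 per kilobase) stood above the lower member Sema6d (48.1). Sema5b, a transmembrane semaphorin with thrombospondin repeats (ENSMUSG00000052133.16, chr16:35541145-35664732, plus strand), had 536, 630.4 and 639.6 normalized counts in the libraries labelled 3KO, against 1.66, 10.8 and 77.9 in controls. This was the largest rise among the guidance genes (log2 change 5.47 ± 1.00, limma adjusted p = 0.00314), but its size moved with single controls, to 4.30 without control replicate 1 and 6.74 without control replicate 3. Its share of the 3 classes per kilobase was 17.3% ± 0.556 in the libraries labelled 3KO and 0.75% ± 1.00 in controls. Sema7a, which is anchored by lipid and binds plexin C1 and integrins, had 58.6, 106 and 74.5 in the libraries labelled 3KO and 3.93, 18.5 and 23.1 in controls (log2 change 2.57 ± 0.57, limma adjusted p = 0.00701, and 1.85 without control replicate 1). Sema6c was higher by 1.64 ± 0.44 (limma adjusted p = 0.0179), with 116 ± 26.9 in the libraries labelled 3KO and 40.9 ± 23.1 in controls, but not without 3KO replicate 2 (1.47, adjusted p = 0.0732) or 3 (1.66, adjusted p = 0.0544). Sema6b was higher by 2.71 ± 0.92 (limma adjusted p = 0.0457) at levels of 15.6 to 33.2 in the libraries labelled 3KO and 0 to 13.4 in controls. Of the 6 fits that left out a library, it was called only in the one without control replicate 2 (3.78), and its change was 2.51 without control replicate 1, 1.85 without control replicate 3, and 2.85, 2.39 and 2.90 without 3KO replicates 1, 2 and 3.

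Among the lower members of these classes, Sema5a had 2583, 2855 and 3061 in the libraries labelled 3KO and 3956, 3909 and 4905 in controls (log2 change −0.58 ± 0.14, limma adjusted p = 0.00966), without overlap. Sema6d, a ligand of plexin A1, had 436, 551 and 536 in the libraries labelled 3KO, against 929.8, 869 and 678 in controls (log2 change −0.70 ± 0.18, limma adjusted p = 0.0134), and lost its call without control replicate 1 (−0.60, adjusted p = 0.0519) or 3KO replicate 1 (−0.59, adjusted p = 0.0580). Sema6a was the weakest of the 9 lower calls, with a log2 change of −0.43 ± 0.15 (limma adjusted p = 0.0493) and means of 1393 ± 168 in the libraries labelled 3KO and 1871 ± 199.5 in controls. That call was lost when control replicate 1 (−0.40) or 3 (−0.36), or 3KO replicate 1 (−0.33), 2 (−0.50) or 3 (−0.44) was left out.

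Plexins, receptors of semaphorins, were higher for 4 of 9 genes (44.4%, beside 20.5% of all genes tested) and lower for 1 (11.1%, beside 15.3%). Per kilobase they summed to 1843, 1923 and 1917 in the libraries labelled 3KO, against 1371, 1286 and 1366 in controls. Plxna1, a class A plexin that works with neuropilins, had 6818, 6924 and 6493 in the libraries labelled 3KO and 3144, 2457 and 4222 in controls (log2 change 1.08 ± 0.18, limma adjusted p = 0.00178). Plxnb1, the receptor of Sema4d, had 2035, 1996 and 2603 in the libraries labelled 3KO, against 4250, 4224 and 3080 in controls (log2 change −0.79 ± 0.17, limma adjusted p = 0.00588). The pair thus moved in opposite directions, each without overlap between groups. Plxna1 held 39.3% ± 1.77 of the plexin level per kilobase in the libraries labelled 3KO and 26.9% ± 6.66 in controls, and Plxnb1 held 12.2% ± 1.76 in the libraries labelled 3KO and 30.0% ± 5.72 in controls. Of the exon bases of Plxna1, 10.7% also belong to the opposite-strand gene Gm26811. Plxnc1, the plexin that binds Sema7a (ENSMUSG00000074785.5, chr10:94790866-94944835, minus strand), had 1124, 833 and 892 in the libraries labelled 3KO and 134, 99.7 and 242 in controls (log2 change 2.66 ± 0.30, limma adjusted p = 0.000173). Ligand and receptor of this pair were both higher, and the stretch before the start of Plxnc1 is the one with 22 CpGs shown above. Plxna2 rose by 0.70 ± 0.17 (limma adjusted p = 0.00986), with 3540 ± 295 in the libraries labelled 3KO and 2205 ± 435 in controls. Plxnb2 was higher by 0.61 ± 0.15 (limma adjusted p = 0.0132), with 3518 ± 372 in the libraries labelled 3KO and 2314 ± 389 in controls, but not without control replicate 1 (0.51, adjusted p = 0.0513) or without 3KO replicate 2 (0.56, adjusted p = 0.0639) or 3 (0.58, adjusted p = 0.0548). Plxna3 (limma adjusted p = 0.633), Plxnd1 (adjusted p = 0.699), Plxnb3 (adjusted p = 0.144) and Plxna4 (adjusted p = 0.179) did not pass, and Plxna4 was called higher without control replicate 3 (0.95, adjusted p = 0.0494).

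**Figure D4:**
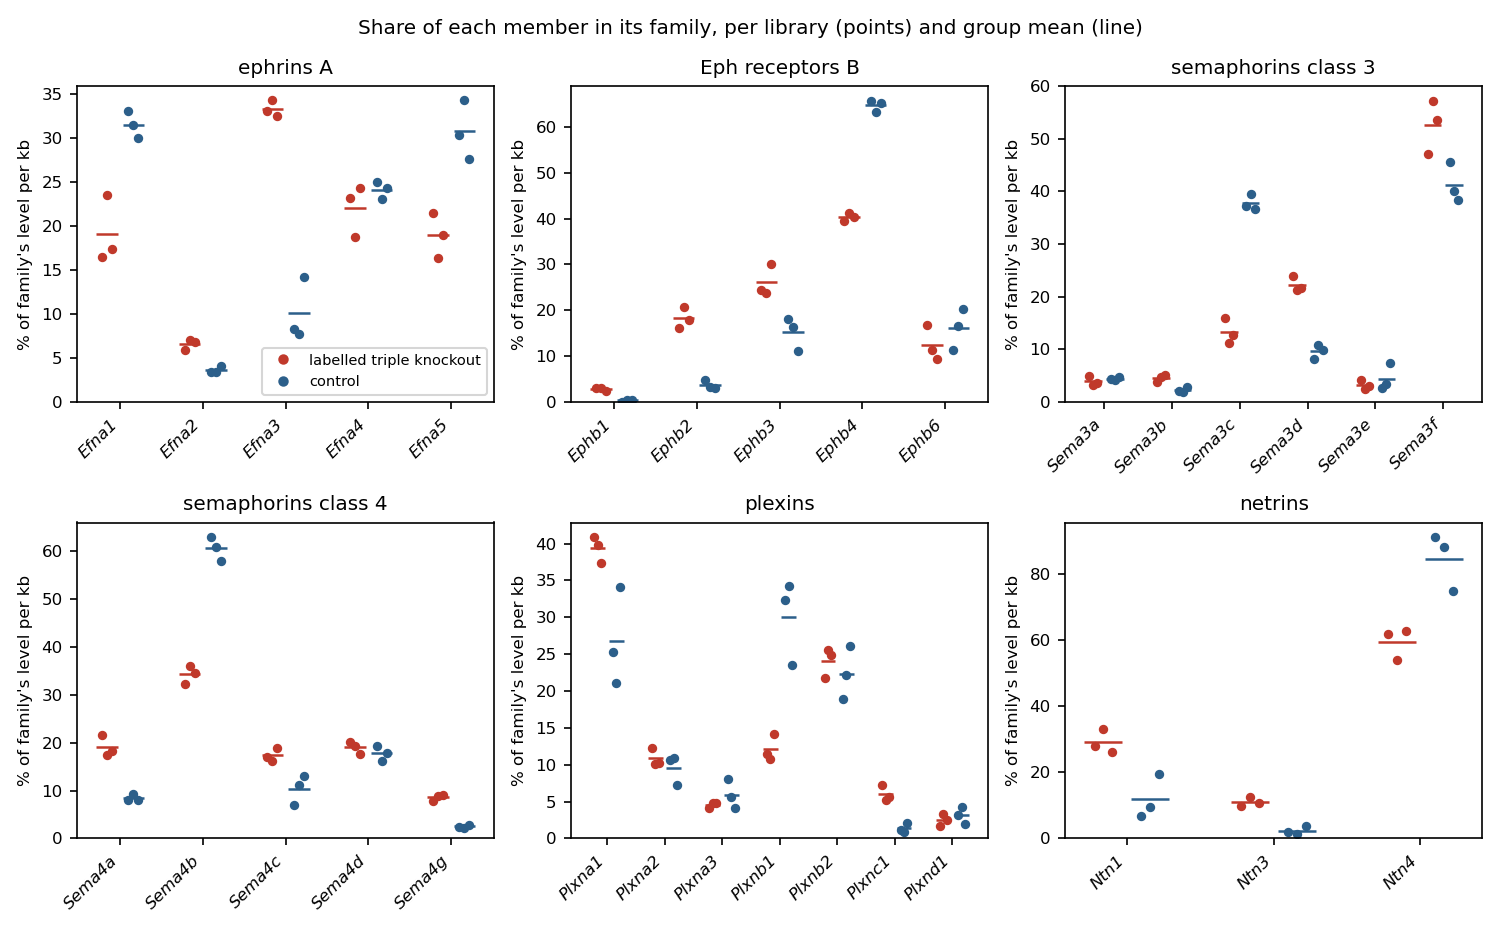
Share of each member in its family's level per kilobase of exon, in percent, for members above 2% in at least 1 group; points are libraries (red, labelled 3KO, left; blue, control, right) and lines are group means. Efna3, Ephb2, Sema3d, Sema4a, Plxna1 and Ntn1 took larger shares in the libraries labelled 3KO, and Efna1, Ephb4, Sema3c, Sema4b, Plxnb1 and Ntn4 smaller ones.

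All 3 Slits, secreted ligands of Robo receptors, were higher by limma (100%, beside 20.5% of all genes tested). Slit3 (ENSMUSG00000056427.10, chr11:35121224-35708507, plus strand) was the most abundant per kilobase, with 997, 1397 and 1345 normalized counts in the libraries labelled 3KO and 126, 112 and 401 in controls (log2 change 2.78 ± 0.42, limma adjusted p = 0.000933). Slit1, known mostly from the nervous system, had 129, 205 and 122 in the libraries labelled 3KO, against 16.1, 36.1 and 5.84 in controls (log2 change 3.19 ± 0.55, limma adjusted p = 0.00178). The size of that change was 3.78 without control replicate 2 and 2.56 without control replicate 3. Slit2 had 277, 276 and 424 in the libraries labelled 3KO and 79.0, 66.0 and 225 in controls (log2 change 1.58 ± 0.42, limma adjusted p = 0.0170). In Slit2 and Slit3 control replicate 3 stood above the other controls, as it did for 17 of the 32 higher guidance genes. That library also had the highest fibroblast marker sum, 31986, and a link between these values was not tested. The Slit2 call was lost without control replicate 1 (1.38, limma adjusted p = 0.0564) or 2 (1.25, adjusted p = 0.0585) or without 3KO replicate 3 (1.38, adjusted p = 0.0714). Summed per kilobase, Slits reached 244 ± 41.6 in the libraries labelled 3KO and 43.3 ± 28.3 in controls, 5.64-fold on average.

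Robo1, the main Slit receptor in these cells by level per kilobase, had 6470, 7057 and 6809 in the libraries labelled 3KO, against 3205, 2626 and 4646 in controls (log2 change 1.00 ± 0.19, limma adjusted p = 0.00348). Robo3, which in mammals governs midline crossing and binds Nell2 rather than Slits, had 88.1, 28.2 and 24.7 in the libraries labelled 3KO and 1.37, 0 and 0 in controls (log2 change 4.93 ± 0.70, limma adjusted p = 0.000661). Robo3 was close to 0 in all controls and stayed low in the libraries labelled 3KO, where replicate 1 stood above the others. Robo2 did not pass (495 ± 113 in the libraries labelled 3KO and 616 ± 139 in controls, limma adjusted p = 0.298), nor did Robo4, a Robo of endothelial cells, which stayed between 8.39 and 32.6 in all libraries. Robo1 made up 91.2% ± 1.59 of the Robo level per kilobase in the libraries labelled 3KO and 83.8% ± 2.18 in controls.

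Netrins are laminin-related secreted proteins. Ntn1, the prototype attractant, had 232, 272 and 272 in the libraries labelled 3KO and 49.3, 86.1 and 147 in controls (log2 change 1.58 ± 0.35, limma adjusted p = 0.00712), but did not pass in the GC-adjusted values (0.52, limma adjusted p = 0.224). Ntn3 had 66.7, 84.2 and 92.5 in the libraries labelled 3KO, against 11.7, 11 and 22.8 in controls (log2 change 2.40 ± 0.35, limma adjusted p = 0.000725). Both were higher without overlap, whereas Ntn4, a netrin of basement membranes, did not pass (319 ± 65.6 in the libraries labelled 3KO and 406 ± 73.7 in controls, limma adjusted p = 0.235). Ntn4 still made up 59.6% ± 4.85 of the netrin level per kilobase in the libraries labelled 3KO, against 84.8% ± 8.76 in controls, and Ntn1 29.2% ± 3.72 in the libraries labelled 3KO against 11.9% ± 6.73 in controls.

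Unc5 receptors mediate repulsion by netrins. Unc5a had 30.5, 37.9 and 35.6 in the libraries labelled 3KO and 10.6, 0 and 2.25 in controls (log2 change 3.41 ± 0.81, limma adjusted p = 0.0095). The change was 4.30 without control replicate 1 and 2.54 without control replicate 2, at a low level in both groups. Unc5b, the leading Unc5 receptor per kilobase in both groups, was higher by 0.63 ± 0.17 (limma adjusted p = 0.0181), with 1303 ± 143 in the libraries labelled 3KO and 847 ± 148 in controls. That call was lost without 3KO replicate 2 (0.57, limma adjusted p = 0.0770) or 3 (0.59, adjusted p = 0.0687), and the sign turned in the GC-adjusted values (−0.26, adjusted p = 0.312). Unc5c (limma adjusted p = 0.714) and Unc5d (limma adjusted p = 0.407) did not pass, nor did Unc50 (limma adjusted p = 0.283).

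Partners outside the symbol rule were read from lists of other guidance genes. Of 14 coreceptors and receptors 13 were tested, and 7 were higher by limma (53.8%, beside 20.5% of all genes tested). By limma 0 were lower (beside 15.3%), and 0 also at an unadjusted p below 0.05. The median log2 change was 0.79. Nrp1, a coreceptor of class 3 semaphorins, had 1142, 1205 and 1090 in the libraries labelled 3KO and 80.1, 229.6 and 191 in controls (log2 change 2.90 ± 0.34, limma adjusted p = 0.000215). Its partner Nrp2 was higher as well (log2 change 1.45 ± 0.30, limma adjusted p = 0.00467). Both neuropilins were thus higher in the libraries where Sema3c and Sema3a were lower. The adhesion receptors Dscaml1, Cntn2 and Flrt2 were higher by 4.05 ± 0.44, 4.20 ± 0.57 and 1.14 ± 0.18 (limma adjusted p = 0.000146, 0.000485 and 0.0012). Of the netrin receptors, Neo1 did not pass (2811 ± 89.0 in the libraries labelled 3KO and 3476 ± 993 in controls, limma adjusted p = 0.293) and Dcc stayed between 0 and 1.06 in all libraries.

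Of 8 ligands outside the rule, 5 were higher (62.5%, beside 20.5% of all genes tested) and 2 lower (25.0%, beside 15.3%). Their median log2 change was 1.86. Nell2, the ligand of Robo3, had 438, 712 and 637 in the libraries labelled 3KO, against 1.504, 3.07 and 1.89 in controls (log2 change 7.56 ± 0.32, limma adjusted p = 1.07e-06). Its change was larger than that of any gene of the 68. Ntng2, a membrane-anchored netrin-G, was higher too (309.9 ± 18.2 in the libraries labelled 3KO and 66.7 ± 14.1 in controls, limma adjusted p = 7.61e-05). The neogenin ligands Rgma and Rgmb were lower: Rgma had 1269 ± 79.9 in the libraries labelled 3KO and 3617 ± 516 in controls (log2 change −1.503 ± 0.14, limma adjusted p = 6.72e-05), and Rgmb had 732 ± 171 in the libraries labelled 3KO and 1836 ± 259.7 in controls (log2 change −1.34 ± 0.20, limma adjusted p = 0.000786). Spon1 did not pass (limma adjusted p = 0.561).

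Of 44 intracellular effectors 22 were higher and 1, Rasa1, was lower, with a median of 0.56. The split was 23 higher and 4 lower with quantile normalization, beside 4194 and 4991 among all genes. In the GC-adjusted values it was 19 and 7, beside 4820 and 3786. The smallest p-values belonged to collapsin response mediators, which act downstream of semaphorins on the cytoskeleton. Dpysl4 had 348, 381 and 283 in the libraries labelled 3KO and 5.81, 5.52 and 7.79 in controls (log2 change 5.52 ± 0.27, limma adjusted p = 2.04e-06). Dpysl3 and Dpysl5 were higher by 4.56 ± 0.29 and 2.63 ± 0.14 (limma adjusted p = 7.37e-06 and 3.67e-06). Srgap3, a Slit-Robo GTPase-activating protein, was higher by 2.24 ± 0.17 (limma adjusted p = 1.78e-05), and the GTPase Rac1 did not pass (11023 ± 802 in the libraries labelled 3KO and 10147 ± 1315 in controls, limma adjusted p = 0.5). Neuron markers were higher in the same libraries, as given above, and their part in these changes was not tested.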

How the data were processed

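The deposited values are a signal on a relative scale, made by the authors and called normalized counts per the file headers. The tools named in the submitters' processing notes are kallisto 0.42.5 and DESeq2, with annotation, strand setting and options not given in the sources used here. Per the labels' protocols, cDNA was amplified from a small amount of total RNA and sequenced as single reads. Low values were not whole multiples of a common step, so read numbers could not be rebuilt and no count model was used. The depth of each library is therefore unknown, and no counting interval is given. The normalized sums per library are given in the text. Kallisto estimates transcript levels, so overlapping genes can exchange reads: 17 of the 68 genes share exon bases with another gene, 4 of them over 10% (Efna3, Efna4, Plxna1 and Ntn5). The build is named from a match: 38243 of 38258 identifiers were found in GENCODE M21, and 37652 genes (98.42%) had identical coordinates, all 68 members included. No gene had the same value above 0 in any pair of libraries.

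Values were analysed as log2(normalized count + 1), which understates changes of low genes. Genes with a mean of at least 10 over 6 libraries (23006) were fitted with limma 3.58.1 in R 4.3.3 (trend and robust, no covariate), with Benjamini-Hochberg adjustment over all of them and a threshold of 0.05. Log2 changes are libraries labelled 3KO minus control, ± SE; other errors are SD over 3 libraries. The procedure was tested on simulated data. Levels per kilobase divide by the union of annotated exon bases. Members, marker lists and guidance lists were chosen with earlier results of these data known, so no list was tested as a set. Named in full, within each family, were up to 3 called genes with the smallest p and the most abundant tested gene that did not pass; other members were added as the text needed them. Alternatives were pseudocounts of 0.5 and 5, no filter, a mean of at least 50, trimmed-mean (TMM) factors (0.3 of log ratios and 0.05 of levels trimmed at each end), quantile normalization, plain limma (neither trend nor robust), a replicate block, each library left out and, chosen after seeing the data, GC-adjusted values, from which splines (5 degrees of freedom each) in transcript GC content and length were taken out of every library.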

Additional observations from a re-analysis of the deposited data

How the results depend on the processing

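Of the 41 called guidance genes, 40 kept their direction and 28 (22 higher, 6 lower) kept their call under every alternative that gave them a value (15, or 14 for 6 of the 28, which the mean of at least 50 left out), and 7 genes that did not pass were called under at least 1. The number called was between 31 and 40 when single libraries were left out. Without 3KO replicate 3 it was 31 (49.2%, beside 27.5% of all genes tested). Without control replicate 3 it was 40 (63.5%, beside 41.8%). Plain limma without trend or robust gave 33 (52.4%, beside 32.0%), with Efna4, Ephb3, Plxnb2, Sema3d, Sema3e, Sema6a, Sema6b and Unc5b lost. The GC-adjusted values gave 35 (55.6%, beside 37.4%). The replicate numbers did not pair the libraries: deviations of same-numbered libraries correlated at 0.061, −0.023 and 0.022, and 3KO replicate 2 went best with control replicate 3 (0.067). With the replicate block 41 guidance genes were called, 33 higher and 8 lower, and 8106 of all genes, with Sema6a lost and Sema4c gained. The GC adjustment ended the calls of Eed (log2 change −0.40), Ephb3 (0.12), Efna4 (0.36), Ntn1 (0.52), Plxna2 (0.47), Plxnb2 (0.12), Sema3e (−0.87), Sema6b (1.66) and Sema6c (0.78), and gave calls to Ephb6 (−1.12), Plxnb3 (−1.54) and Sema3f (−0.81). It turned the sign of Unc5b (−0.26) and, among values that did not pass, of Rnf2 (0.12), Epha1 (−0.093), Epha2 (−0.022), Epha3 (0.14), Efnb1 (−0.057), Plxna3 (−0.24), Plxnd1 (−0.26), Sema3b (−0.26) and Sema4d (−0.38). Quantile normalization turned Epha5 (−0.12), Unc5c (−0.11) and Plxnd1 (−0.016). With single libraries left out, the change of Eed ran from −1.01 to −0.67. Signs turned for 7 genes that did not pass, with ranges of −0.33 to 0.16 for Epha3, −0.56 to 0.30 for Robo4, −0.079 to 0.27 for Unc5c, −0.051 to 0.42 for Plxna3, −0.095 to 0.45 for Plxnd1, −0.020 to 0.18 for Sema4d and −0.32 to 0.0050 for Spon1. The causes were not tested. Epha8, Robo3, Unc5a, Sema4f and Sema6b were low in normalized counts, the number of reads behind them is unknown, and a listed 0 may be an estimate that failed.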
